A study of Mus musculus with 8 samples.

Results

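The wound keratins Krt6a, Krt6b, Krt16 and Krt17 were followed over 8 Affymetrix whole-transcript arrays of dorsal skin from male mice. A member was a probe set whose platform annotation named only 1 of these 4 symbols, which gave 4 probe sets of 41345, 1 for each gene, and 4 of the 22180 genes tested. The series asks how the response of skin to imiquimod (IMQ), a Toll-like receptor agonist that induces psoriasis-like inflammation, depends on the IL-22 receptor and on alloferon, an insect-derived peptide given in a cream. KO_IMQ_Allo and KO_Allo are knockout skin labelled for alloferon, with and without IMQ. KO_IMQ and KO_CTRL, and KO_IMQ_B and KO_CTRL-B, are knockout skin with and without IMQ and with no alloferon in the label. WT_IMQ and WT_CTRL are C57BL/6 skin with and without IMQ. The 6 arrays labelled KO come from the strain B6.Cg-Il22ra1tm1.1Koll/J, which carries a targeted allele of the IL-22 receptor alpha chain gene. The cells in which that allele was inactive, what the letter B stands for, the age of the mice and any pooling of RNA are not given in the sources used here. By the stated protocol, with 4 mice in each group, 83.3 mg of 5% IMQ cream went on the back and ears daily on days 1 to 7, followed 6 hours later by a cream holding alloferon or its vehicle. Whether the arrays without IMQ in the label had any cream, vehicle included, is not stated array by array.

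Keratins are the intermediate filament proteins of epithelia and assemble as pairs of a type II and a type I chain. Krt6a and Krt6b encode type II chains, and Krt16 and Krt17 encode type I chains. In resting mouse skin these genes are used mainly by hair follicle and nail epithelium, while the epidermis between follicles makes Krt5 and Krt14 in its basal layer and Krt1 and Krt10 above it. After wounding, and in psoriasis, keratinocytes of the epidermis between follicles switch on Krt6, Krt16 and Krt17, which are therefore used as markers of an activated, hyperproliferative epidermis.

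Each label had 1 array, and the deposited values are log2 expression values, so 1 log2 unit is a 2-fold difference. The medians of the arrays differed by at most 0.05, and no 2 arrays held identical values. Il22ra1, the targeted gene, read 8.92, 8.91, 8.59, 8.88, 9.40 and 8.91 on KO_Allo, KO_CTRL, KO_CTRL-B, KO_IMQ, KO_IMQ_Allo and KO_IMQ_B, against 8.23 on WT_CTRL and 8.64 on WT_IMQ. It was thus not lower on the arrays labelled KO. Where its probes lie relative to the targeted stretch is not known, so the level is no check of the genotype. Every direction between KO and WT below rests on the labels. The keratinocyte genes Krt14, Krt1 and Krt10 lay between 10.96 and 13.04 on all 8 arrays. KO_Allo lay near the IMQ arrays for Krt6a, Krt6b, Krt16 and Il1b although its label names no IMQ, and on KO_IMQ_Allo Il1b read like a control, so the fits over the 4 pairs are also given without these arrays. Some other genes ran as these labels say, with Il1f9 at 10.14 on KO_IMQ_Allo and 8.32 on KO_Allo, and the macrophage gene Adgre1 at 8.87 and 7.67. The macrophage markers were mixed. Of 8 monocyte and macrophage markers, 1 (Adgre1) was at least 1 log2 unit higher on KO_IMQ_Allo than on KO_Allo, and 1 (Cd14) lower. Whether these 2 arrays carry the right labels was not tested and is in doubt. If they were exchanged, every difference of the alloferon pair would change sign, and the comparisons of KO_Allo and KO_IMQ_Allo with other arrays would concern the opposite treatment.

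Krt6b had the widest range of the 4 genes. It read 12.12, 12.66, 12.71 and 12.44 on KO_IMQ_Allo, KO_IMQ, KO_IMQ_B and WT_IMQ, against 11.83, 4.67, 7.49 and 5.00 on KO_Allo, KO_CTRL, KO_CTRL-B and WT_CTRL. The 4 IMQ arrays lay within 0.59 log2 units of each other, whereas the arrays without IMQ were spread widely, with KO_Allo almost at the IMQ level, KO_CTRL-B intermediate, and KO_CTRL and WT_CTRL lowest. The readings of 4.67 and 5.00 lie below the median of all gene values (6.05), where an array compresses differences.

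Krt16, the type I chain that pairs with Krt6 proteins, read 11.43, 11.91, 11.99 and 11.64 on KO_IMQ_Allo, KO_IMQ, KO_IMQ_B and WT_IMQ, against 10.59, 5.89, 7.19 and 6.12 on KO_Allo, KO_CTRL, KO_CTRL-B and WT_CTRL. Krt6a read 11.87, 12.59, 12.64 and 12.22 on KO_IMQ_Allo, KO_IMQ, KO_IMQ_B and WT_IMQ, against 11.57, 8.09, 9.81 and 8.95 on KO_Allo, KO_CTRL, KO_CTRL-B and WT_CTRL. For all 3 of these genes every IMQ array lay above every array without IMQ, which held for 5.96% of all genes. They also put the 8 arrays in the same order, with KO_IMQ_B highest, then KO_IMQ, WT_IMQ, KO_IMQ_Allo, KO_Allo, KO_CTRL-B and WT_CTRL, and KO_CTRL lowest. Within that order the step between KO_IMQ_B and KO_IMQ was at most 0.09 log2 units, too small to separate those arrays, and the largest step for each gene was the one below KO_Allo.

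Krt17, the type I chain also used in hair follicles, read 10.66, 10.37, 10.43 and 9.53 on KO_IMQ_Allo, KO_IMQ, KO_IMQ_B and WT_IMQ, against 10.19, 9.55, 10.25 and 10.02 on KO_Allo, KO_CTRL, KO_CTRL-B and WT_CTRL. Arrays with and without IMQ overlapped, and the lowest of all 8 was WT_IMQ. Its order of arrays differed from that shared by the other 3 genes.

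**Figure D1:**
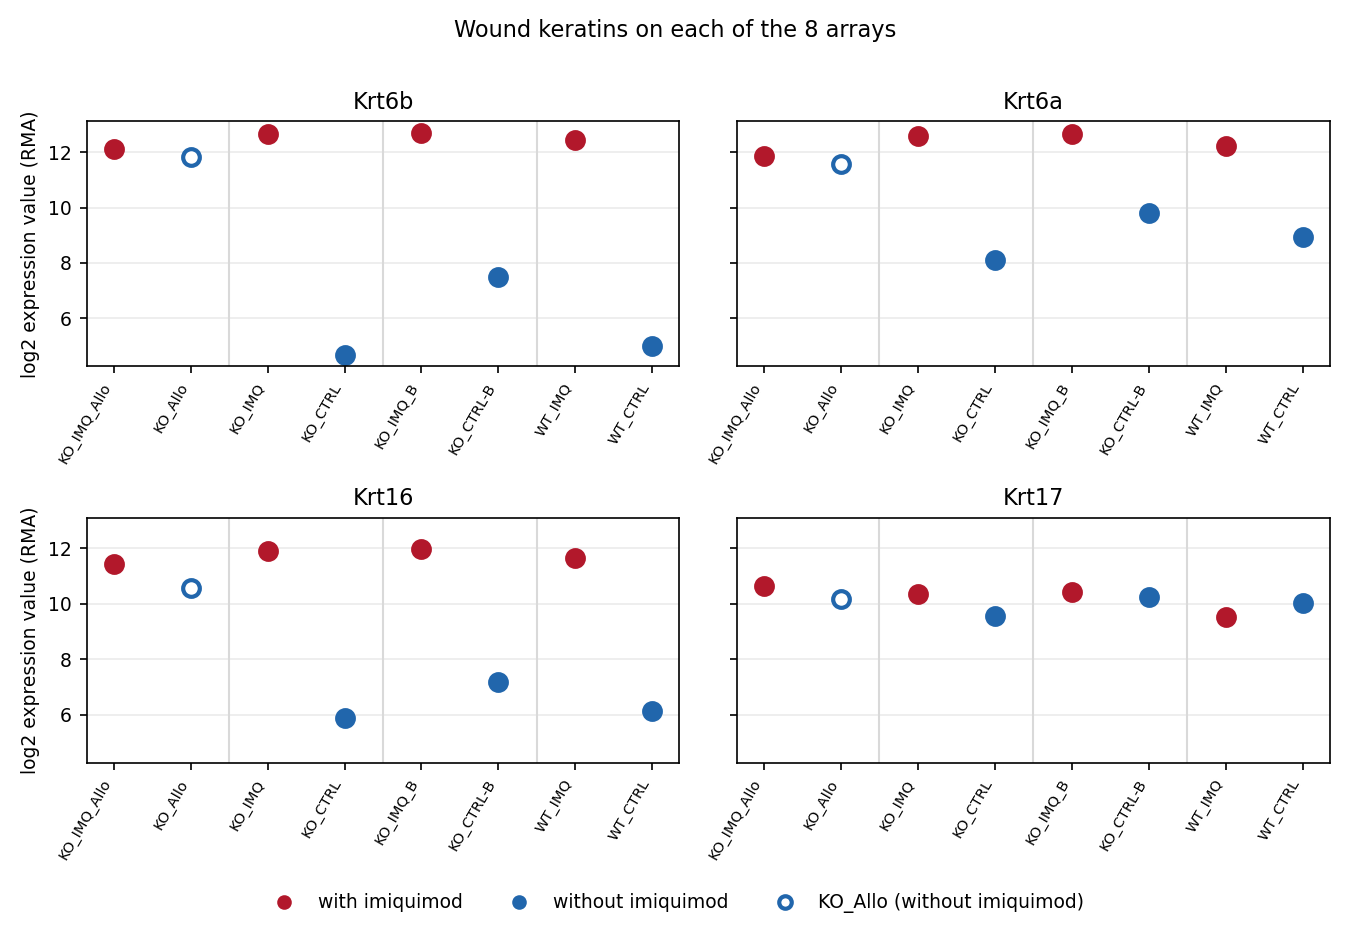
Log2 expression value (vertical axis) of each wound keratin on the 8 arrays (horizontal axis), 1 point per array, IMQ arrays in red and arrays without IMQ in blue, with each IMQ array left of its partner and KO_Allo drawn open. Krt6b, Krt6a and Krt16 lie high on all IMQ arrays and on KO_Allo, where they read 11.83, 11.57 and 10.59, and Krt17 stays between 9.53 and 10.66 on every array.

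Krt6a and Krt6b are close paralogs, and short probes may not separate them fully, so the 2 genes are not independent readings. Probe sets annotated to a member together with another gene were left out. The set shared by Krt5 and Krt6a read 11.99, 11.94, 11.97 and 11.70 on KO_IMQ_Allo, KO_IMQ, KO_IMQ_B and WT_IMQ, against 11.84, 11.61, 11.65 and 11.54 on KO_Allo, KO_CTRL, KO_CTRL-B and WT_CTRL. It thus stayed within 0.45 log2 units over all arrays, while the Krt6a set itself moved by over 4. Krt5 had no probe set of its own in the annotation.

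The IMQ response was first taken within each of 4 pairs that share all of the label but IMQ, called here the alloferon, plain KO, KO B and WT pairs. Krt6b differed by 0.29 log2 units in the alloferon pair, against 7.99 in the plain KO pair, 5.22 in the KO B pair and 7.45 in the WT pair. It was the gene with the highest IMQ difference of all 22180 in the plain KO and WT pairs and ranked 4 in the KO B pair, but ranked 3150 in the alloferon pair. Krt16 differed by 0.84 in the alloferon pair, against 6.02, 4.81 and 5.52 in the plain KO, KO B and WT pairs. Krt6a differed by 0.31 in the alloferon pair, against 4.50, 2.83 and 3.27. The responses of these 3 genes thus lay between 2.83 and 7.99 log2 units in the 3 pairs without alloferon and between 0.29 and 0.84 in the alloferon pair. For Krt6b on KO_CTRL and WT_CTRL, and Krt16 on KO_CTRL, the lower reading was under the median of all gene values, so no fold is given for those pairs.

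Krt17 differed by 0.47 in the alloferon pair, 0.82 in the plain KO pair, 0.17 in the KO B pair and -0.48 in the WT pair. Past 1 log2 unit upward lay 3 of the 4 members in the WT, plain KO and KO B pairs, against 2.50%, 2.69% and 1.83% of all genes. In the alloferon pair 0 of 4 did, against 0.771% of all genes. Downward, 0 of 4 passed in the WT, plain KO, KO B and alloferon pairs, against 2.12%, 2.22%, 1.29% and 0.938% of all genes. These are differences of 1 array from 1 array and carry no replicate check.

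**Figure D2:**
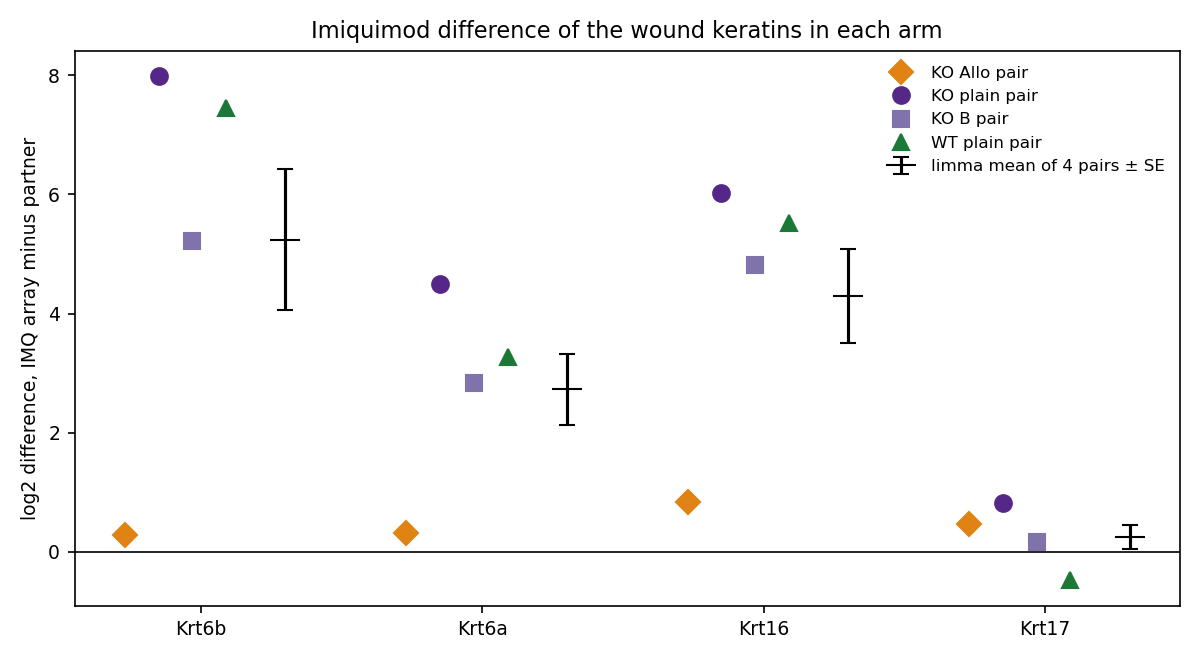
Log2 difference between the IMQ array and its partner (vertical axis) for each wound keratin, 1 symbol per pair of arrays, with the limma mean of the 4 pairs and its standard error in black. The alloferon pair lies at 0.29, 0.31 and 0.84 for Krt6b, Krt6a and Krt16, below the 3 other pairs, and the Krt17 symbols lie on both sides of 0.

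The 4 pairs were then used as replicates of the IMQ contrast in limma, with a level for each pair and p-values adjusted over all 22180 genes. Krt16 rose by 4.30 ± 0.79 log2 units (SE, n = 4 pairs, limma adjusted p = 0.0445) and was higher with IMQ in 4 of 4 pairs, as were 12.6% of all genes. Krt6b measured 5.24 ± 1.18 (limma adjusted p = 0.0676) and Krt6a 2.73 ± 0.60 (limma adjusted p = 0.0640), each also higher in 4 of 4 pairs. Krt17 measured 0.25 ± 0.20 (limma adjusted p = 0.581) and was higher in 3 of 4. By size of difference Krt6b ranked 3, Krt16 8, Krt6a 31 and Krt17 2687 among all genes, but by p only 1079, 567, 979 and 10159. Of the 4 members 1 passed upward, against 1.90% of all genes, and 0 downward, against 1.19%.

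The small response of the alloferon pair enters the error of each of these estimates. Without that pair Krt6b measured 6.88, Krt16 5.45 and Krt6a 3.53 log2 units, with limma adjusted p = 0.00235, 0.000479 and 0.00354, so that 3 of 4 members passed upward against 3.72% of all genes. Krt17 then measured 0.17 (limma adjusted p = 0.757). The alloferon pair was singled out with its low responses of Krt6b, Krt16 and Krt6a known. Their estimates had to be larger without it, so these values and calls describe the 3 other pairs and give no separate support. The call for Krt16 was lost on leaving out the KO B, plain KO or WT pair (limma adjusted p = 0.184, 0.144 and 0.200). Each label had a single array, and any pooling of RNA is not given. These p-values measure how far the IMQ difference varied among pairs that also differ in genotype or alloferon label. They do not measure the spread between animals of a group, and part of that variation may be technical.

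Markers of other tissues moved with IMQ beside the wound keratins. Skeletal muscle markers were at least 1 log2 unit lower on the IMQ array for 3 of 12 in the alloferon pair, 11 of 12 in the plain KO pair, 3 of 12 in the KO B pair and 12 of 12 in the WT pair, and 4 of 12 (Myh1, Actn3, Mb and Casq1) fell in limma. Adipocyte markers were lower by that much for 0, 8, 3 and 2 of 8 in the same pairs, and 1 of 8 (Car3) fell in limma. Mean muscle levels ran from 7.80 to 8.76 over the IMQ arrays, against 8.47 to 10.94 over the arrays without IMQ, and mean adipocyte levels from 7.55 to 8.64, against 7.76 to 9.54. Fewer of these markers differed in the KO B pair than in the plain KO pair. Krt6b, Krt16 and Krt6a differed by 5.22, 4.81 and 2.83 in the KO B pair, against 7.99, 6.02 and 4.50 in the plain KO pair. The part of tissue makeup in the keratin response was not tested.

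Differences in response between arms were then fitted in limma. The alloferon contrast uses the KO_Allo, KO_CTRL and KO_CTRL-B values, which were known when the KO_Allo levels were singled out. Its sign, intervals and unadjusted p therefore describe these members and give no separate support. The alloferon pair minus the other KO pairs gave -6.31 ± 1.11 log2 units for Krt6b (95% interval -9.17 to -3.45, limma adjusted p = 0.438), from responses of 0.29 and 6.60. It gave -4.57 ± 0.53 for Krt16 (-5.94 to -3.20, limma adjusted p = 0.327) and -3.36 ± 0.69 for Krt6a (-5.15 to -1.57, limma adjusted p = 0.484). Krt17 gave -0.02 ± 0.35 (-0.92 to 0.88). In limma 0 of 22180 genes passed (0.00%), with either prior, and 1473 (6.64%) had an unadjusted p under 0.05, 3 of the 4 members among them. The intervals are not adjusted for the number of genes, the fit has 1 residual degree of freedom and assumes that the lone alloferon pair varies like the others.

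KO response minus WT response gave -2.95 ± 2.74 for Krt6b, -1.63 ± 1.91 for Krt16 and -0.72 ± 1.49 for Krt6a, with 95% intervals of -9.81 to 3.92, -6.41 to 3.16 and -4.47 to 3.02. For Krt17 it gave 0.97 ± 0.31 (0.20 to 1.74, unadjusted p = 0.0218, limma adjusted p = 0.983), from responses of 0.49 over the KO pairs and -0.48 in the WT pair. In limma 0 genes passed (0.00%), also with a trended robust prior, and 914 (4.12%) had an unadjusted p under 0.05, of the members Krt17 alone. The wide intervals leave room for differences of several log2 units in either direction for Krt6b and Krt16. Without the alloferon pair the difference was -0.84 for Krt6b and -0.10 for Krt16, both nearer to none. For Krt6a it was 0.40, of opposite sign, and for Krt17 it was 0.98.

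The levels on KO_Allo were then set against both other knockout arrays without IMQ. This comparison was singled out with its values known, so it is a description without a test. Krt6b was 7.16 log2 units higher on KO_Allo than on KO_CTRL and 4.34 higher than on KO_CTRL-B. The second is 20.2-fold, and no fold is given for the first because KO_CTRL read below the median of all gene values. Krt16 was 4.70 and 3.40 higher and Krt6a 3.48 and 1.76 higher. Krt17 differed by 0.64 from KO_CTRL and by -0.06 from KO_CTRL-B.

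KO_Allo thus lay at least 1 log2 unit above both arrays for 3 of the 4 members, which held for 0.307% of all genes. By the smaller of its differences each gene could be ranked among all 22180. Krt6b came at 1, Krt16 at 2, Krt6a at 16 and Krt17 at 9515. Against WT_CTRL the same 3 genes were higher by 6.83, 4.47 and 2.62 (Krt6b, Krt16 and Krt6a). Past 1 log2 unit from all 3 other arrays without IMQ lay 3 of 4 members upward and 0 downward, against 0.252% and 0.0812% of all genes.

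The other arrays without IMQ give a measure of spread. The range over KO_CTRL, KO_CTRL-B and WT_CTRL was 2.82 for Krt6b, 1.30 for Krt16 and 1.72 for Krt6a, and KO_Allo exceeded the highest of them by 4.34, 3.40 and 1.76. The excess was larger than that range for Krt6b and Krt16 and about equal to it for Krt6a. In the other direction, KO_Allo lay 0.29 below the lowest IMQ array for Krt6b, 0.31 below it for Krt6a and 0.84 below it for Krt16. Those gaps were inside the range of the 4 IMQ arrays for Krt6b (0.59) and Krt6a (0.76) and outside it for Krt16 (0.56). Against KO_IMQ and KO_IMQ_B, 2 of 4 members (Krt6a and Krt16) were at least 1 log2 unit lower on KO_Allo and 0 higher, against 0.676% and 0.469% of all genes.

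**Figure D3:**
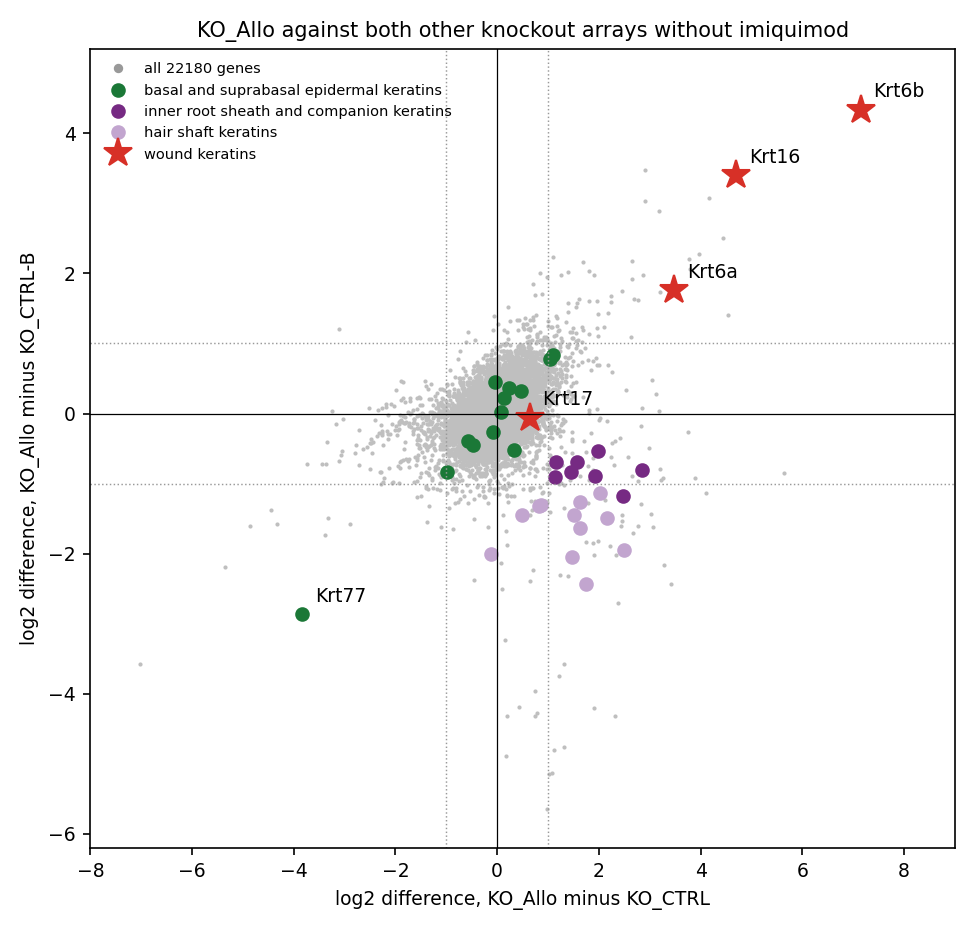
Log2 difference of KO_Allo from KO_CTRL (horizontal axis) and from KO_CTRL-B (vertical axis) for all 22180 genes in grey, with keratin families in colour, wound keratins as stars and dotted lines at 1 log2 unit either way. Krt6b and Krt16 lie furthest to the upper right, Krt17 sits near the origin, and Krt77 lies at -3.83 and -2.87.

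The 2 knockout controls also differed from each other. KO_CTRL-B read higher than KO_CTRL by 2.82 for Krt6b, 1.72 for Krt6a, 1.30 for Krt16 and 0.70 for Krt17, so 3 of 4 members passed 1 log2 unit upward, against 1.46% of all genes, and 0 downward, against 1.38%. Tissue markers moved with that difference. All 8 measured inner root sheath and companion keratins and all 12 hair shaft keratins were at least 1 log2 unit higher on KO_CTRL-B, and 10 of 12 skeletal muscle markers were at least 1 log2 unit lower. Their part in the wound keratin difference was not tested. In bulk skin, fewer cells of a type and less RNA per cell cannot be told apart.

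On KO_Allo the hair keratins lay between the knockout controls. The 8 inner root sheath and companion keratins averaged 9.95 on KO_Allo, against 8.13 on KO_CTRL and 10.76 on KO_CTRL-B, and the 12 hair shaft keratins 7.54 against 6.15 and 9.17. Of these, 0 of 8 and 0 of 12 passed 1 log2 unit from both, against 0.307% of all genes upward and 0.0947% downward. Krt75, a companion layer keratin and a close relative of Krt6 genes, read 9.19 on KO_Allo, against 8.06 on KO_CTRL and 10.10 on KO_CTRL-B. Skeletal muscle markers averaged 8.47 on KO_Allo, against 10.94 and 8.87, with 1 of 12 (Myh4) lower than both, and adipocyte markers 7.76 against 9.54 and 8.58, with 1 of 8 (Lep) lower than both.

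The 8 monocyte and macrophage markers averaged 8.32, against 7.67 on KO_CTRL and 7.86 on KO_CTRL-B, with 1 of 8 (Cd14) past 1 log2 unit from both. The 9 neutrophil markers averaged 5.14, against 4.71 on both, with 0 of 9 past it. Of these, Ly6g, Camp, Ngp, Retnlg and Fpr2 read below the median of all gene values on every array. Cxcr2 was higher on KO_Allo by 1.04 and 0.92 than on KO_CTRL and KO_CTRL-B, and Csf3r by 0.91 and 1.05. Mmp8 was higher by 0.76 and 0.10, and Mmp9 by 0.44 and 0.53. Over the 4 IMQ arrays the macrophage and neutrophil lists averaged 8.52 to 9.33 and 5.29 to 5.90. Over the 4 arrays without IMQ they averaged 7.63 to 8.32 and 4.60 to 5.14. The 9 keratinocyte adhesion markers averaged 10.59 on KO_Allo, against 10.40 and 10.47, with 0 of 9 past 1 log2 unit. No marker reads 0 on this scale, and the part of any of these lists in the wound keratin levels was not tested.

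**Figure D4:**
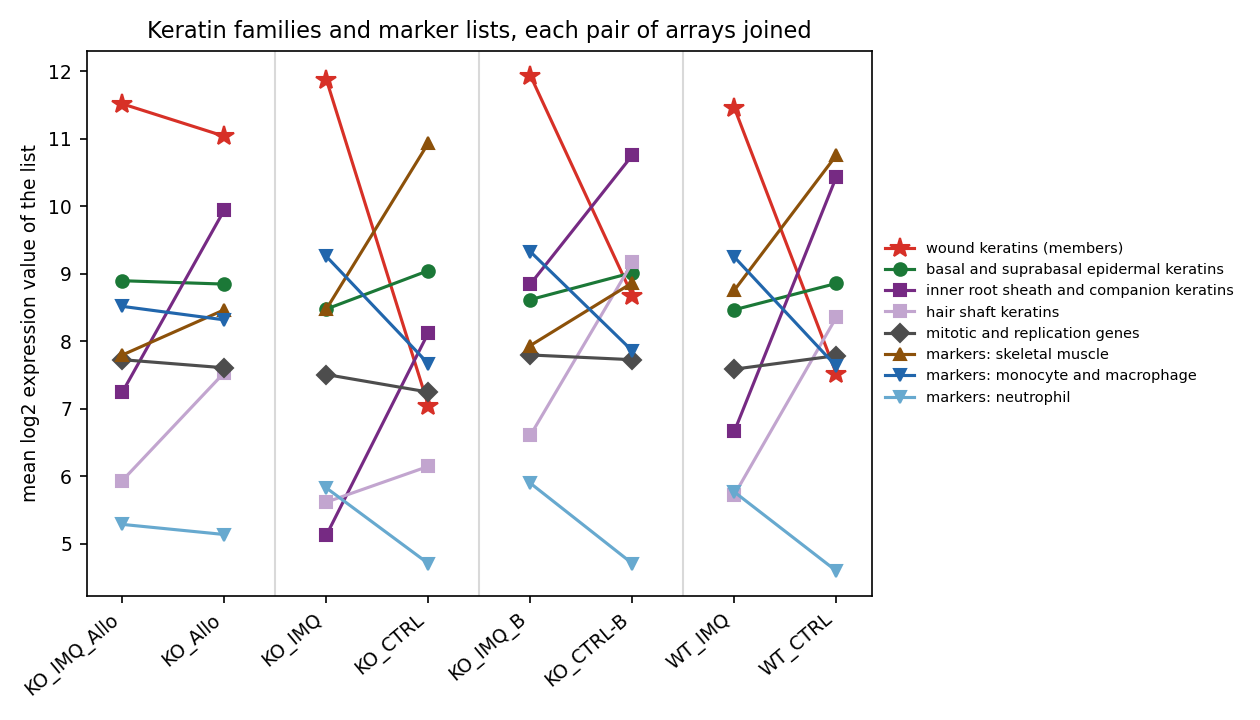
Mean log2 expression value (vertical axis) of keratin families, mitotic genes and tissue markers on the 8 arrays (horizontal axis), each IMQ array joined to its partner on its right. The wound keratin mean is 11.52 on KO_IMQ_Allo and 11.04 on KO_Allo, a flatter line than in the other pairs, and both hair keratin lists are lower on the IMQ array in all 4 pairs.

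Alloferon under IMQ gave smaller differences. KO_IMQ_Allo minus KO_IMQ and minus KO_IMQ_B was -0.54 and -0.59 for Krt6b, -0.71 and -0.76 for Krt6a, -0.48 and -0.56 for Krt16, and 0.29 and 0.24 for Krt17. No member passed 1 log2 unit from both, against 0.307% of genes lower and 0.189% higher. The KO_IMQ and KO_IMQ_B arrays differed from each other by 0.05 to 0.09 for the 4 genes, but WT_IMQ lay nearer to KO_IMQ_Allo, at -0.32, -0.34 and -0.21 for Krt6b, Krt6a and Krt16. With 1 alloferon array no test was made.

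Knockout and wild-type skin without IMQ differed in opposite directions for the 2 knockout controls. KO_CTRL minus WT_CTRL was -0.33 for Krt6b, -0.23 for Krt16, -0.86 for Krt6a and -0.46 for Krt17, while KO_CTRL-B minus WT_CTRL was 2.49, 1.07, 0.86 and 0.24. So 0 of 4 members passed 1 log2 unit in the same direction on both, against 0.0225% of genes higher and 0.0271% lower. With IMQ, KO_IMQ and KO_IMQ_B exceeded WT_IMQ by 0.22 and 0.27 for Krt6b, 0.27 and 0.36 for Krt16, 0.37 and 0.42 for Krt6a, and 0.84 and 0.89 for Krt17. Again 0 of 4 passed 1 log2 unit on both, against 0.203% higher and 0.221% lower. Krt17 was thus the member with the widest gap between knockout and wild-type skin under IMQ, and KO_IMQ_Allo exceeded WT_IMQ by 1.13 for it.

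Among other keratins of the epidermis between follicles, in limma 0 of 13 measured basal and suprabasal keratins rose over the 4 pairs and 2 fell, against 1.90% and 1.19% of all genes, with a list median of 0.03 beside -0.01 for all genes. Those that fell were Krt15, a keratin of basal cells and of the follicle bulge, by 1.56 ± 0.25 (limma adjusted p = 0.0305), and Krt24 by 0.65 ± 0.12 (limma adjusted p = 0.0428). Krt14, the basal type I keratin and the neighbour of Krt16 in the gene order, measured 1.15 ± 0.25 (limma adjusted p = 0.0649). It read 12.10, 12.59, 12.74 and 12.33 on KO_IMQ_Allo, KO_IMQ, KO_IMQ_B and WT_IMQ, against 12.01, 10.97, 11.23 and 10.96 on KO_Allo, KO_CTRL, KO_CTRL-B and WT_CTRL. KO_Allo thus lay near the IMQ level for Krt14, as for Krt16, over a smaller range. Every IMQ array lay above every other array, as for 5.96% of all genes. The step from KO_IMQ_Allo to KO_Allo was only 0.09, too small to separate those arrays.

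Krt77, a type II keratin of suprabasal cells, ran the other way. It read 8.21, 6.36, 6.55 and 6.32 on KO_IMQ_Allo, KO_IMQ, KO_IMQ_B and WT_IMQ, against 8.60, 12.43, 11.47 and 12.04 on KO_Allo, KO_CTRL, KO_CTRL-B and WT_CTRL. Both alloferon arrays lay between the 3 IMQ arrays and the 3 control arrays without it. Over the 4 pairs Krt77 measured -4.28 ± 0.88 (limma adjusted p = 0.0566). It was the only 1 of 13 epidermal keratins past 1 log2 unit from both controls on KO_Allo (lower, against 0.0947% of all genes) and from both other KO arrays with IMQ on KO_IMQ_Allo (higher, against 0.189%).

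On average the hair follicle keratins were lower on the IMQ array of each pair, but their levels overlapped between groups. The inner root sheath and companion list averaged 8.85 on KO_IMQ_B, against 8.13 on KO_CTRL, and the hair shaft list 6.61 against 6.15. In the plain KO pair 3 of 12 hair shaft keratins were at least 1 log2 unit lower with IMQ. In limma 7 of 8 inner root sheath and companion keratins and 8 of 12 hair shaft keratins passed downward, against 1.19% of all genes, and 0 upward. Krt75 fell by 1.91 ± 0.27 (limma adjusted p = 0.0250) and Krt71, an inner root sheath keratin near the Krt6 genes, by 3.48 ± 0.49 (limma adjusted p = 0.0250). In the gene order of RefSeq GRCm38.p6, Krt6b and Krt6a stand side by side, with Krt5 and then Krt71 on one side and Gm5414 and then Krt75 on the other. Krt42, next to Krt17, measured 0.15 ± 0.09 (limma adjusted p = 0.452). Of the 9 simple and mucosal keratins 0 passed in either direction, against 1.90% of all genes upward and 1.19% downward.

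Mitotic genes were measured beside the keratins named for hyperproliferation. In limma 0 of 13 measured mitotic and replication genes passed over the 4 pairs, against 1.90% of all genes upward and 1.19% downward. The list median was 0.03. In the WT, plain KO, KO B and alloferon pairs 0 of 13 were past 1 log2 unit. Of all genes 4.62%, 4.91%, 3.12% and 1.71% were, in either direction. With shares this small, 0 of 13 does not set the list apart from all genes. Mki67, a marker of cycling cells, measured -0.05 ± 0.10 (limma adjusted p = 0.847) and Top2a, the replication topoisomerase, -0.10 ± 0.10 (limma adjusted p = 0.676). On KO_Allo the 13 genes averaged 7.61, against 7.25 on KO_CTRL and 7.73 on KO_CTRL-B.

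Cytokines and growth factors known to induce wound keratins in keratinocytes were listed together with the receptor gene Egfr. Of 15 measured genes 2 rose in limma and 0 fell, against 1.90% and 1.19% of all genes, with a list median of 0.49. Il1a, an IL-1 cytokine stored in keratinocytes, rose by 1.64 ± 0.24 (limma adjusted p = 0.0268), and Il1f9, which encodes IL-36 gamma, by 2.47 ± 0.21 (limma adjusted p = 0.0124). Hbegf, a ligand of the EGF receptor, measured 1.49 ± 0.32 (limma adjusted p = 0.0623). Il17a and Il17f measured 0.42 ± 0.14 and 0.74 ± 0.20 (limma adjusted p = 0.169 and 0.111).

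On KO_Allo 1 of these 15 genes passed 1 log2 unit above both knockout controls, Il1b, against 0.307% of all genes. Il1b, the inflammatory cytokine IL-1 beta, read 4.78, 7.89, 8.68 and 8.54 on KO_IMQ_Allo, KO_IMQ, KO_IMQ_B and WT_IMQ, against 7.86, 4.96, 4.39 and 4.91 on KO_Allo, KO_CTRL, KO_CTRL-B and WT_CTRL. KO_Allo thus had the level of IMQ arrays and KO_IMQ_Allo that of controls. Cd14, a monocyte receptor, also read lower on KO_IMQ_Allo (6.25) than on KO_Allo (7.30). The wound keratins did not share that inversion, since they were high on both alloferon arrays.

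Il1a read 7.76, 8.20, 8.07 and 7.93 on KO_IMQ_Allo, KO_IMQ, KO_IMQ_B and WT_IMQ, against 7.10, 6.00, 6.25 and 6.04 on KO_Allo, KO_CTRL, KO_CTRL-B and WT_CTRL, with KO_Allo in between. Il1f9 read 10.14, 10.51, 10.11 and 10.03 on the same IMQ arrays, against 8.32 on KO_Allo and 8.12, 7.68 and 6.79 on KO_CTRL, KO_CTRL-B and WT_CTRL. For Il1f9, unlike Krt6b, KO_Allo stayed close to the controls. The part of these cytokines in the keratin levels was not tested.

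**Figure D5:**
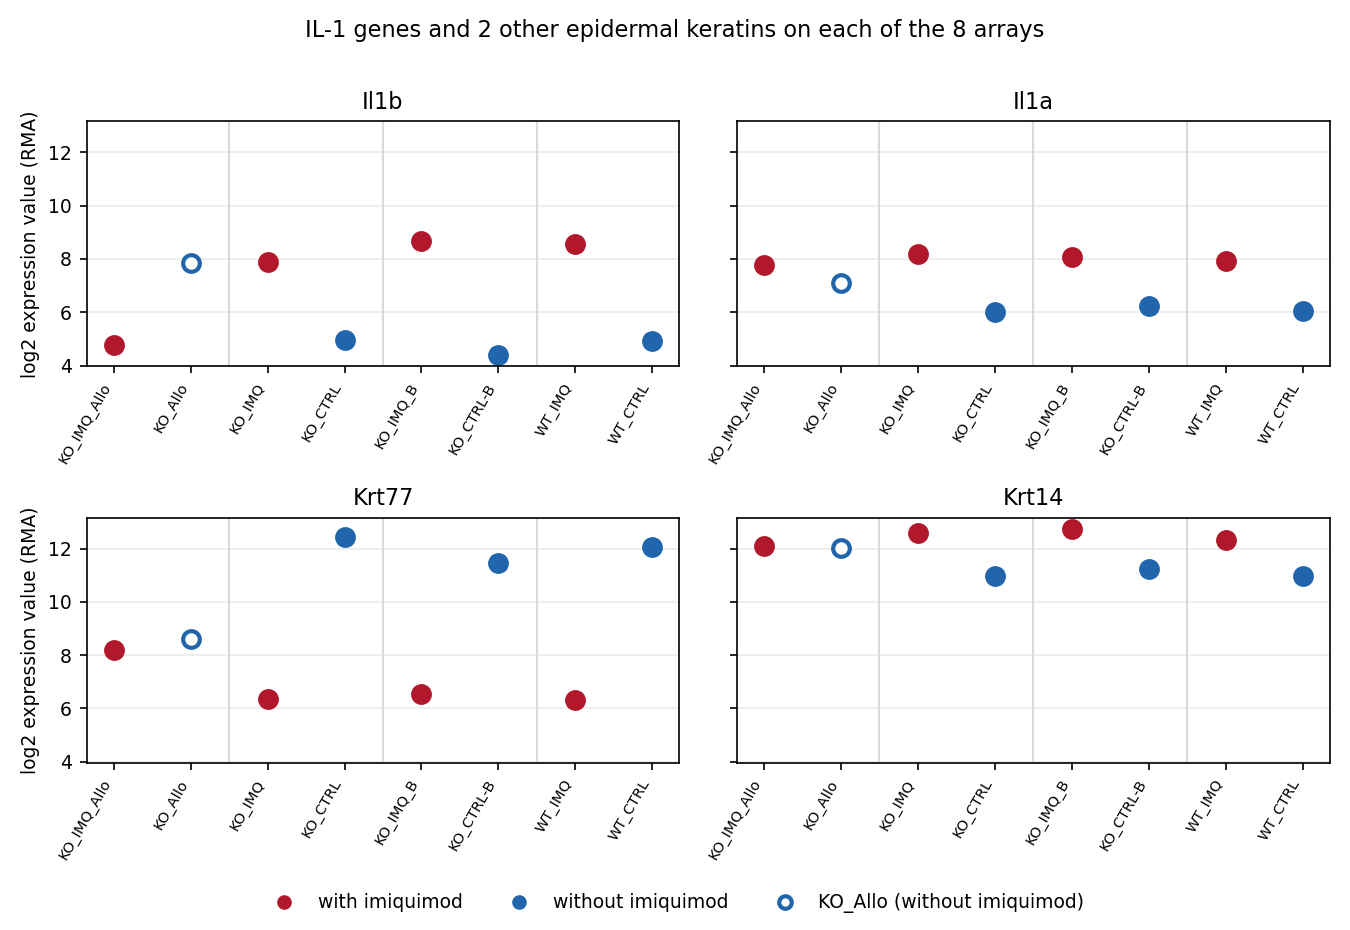
Log2 expression value (vertical axis) of Il1b, Il1a, Krt77 and Krt14 on the 8 arrays (horizontal axis), IMQ arrays in red, arrays without IMQ in blue and KO_Allo open. Il1b reads 7.86 on KO_Allo and 4.78 on KO_IMQ_Allo, and Krt77 reads 8.60 and 8.21 there, between the other IMQ arrays (6.32 to 6.55) and the controls (11.47 to 12.43).

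Of 16 measured transcription factors tied to wound keratin expression, 3 rose in limma over the 4 pairs and 0 fell, against 1.90% and 1.19% of all genes, with a list median of 0.19. These were Nfkbiz, an NF-kB cofactor induced by IL-17 and IL-36, by 0.61 ± 0.10 (limma adjusted p = 0.0346), Cebpb, a factor of keratinocyte differentiation, by 0.56 ± 0.11 (limma adjusted p = 0.0472), and Klf4, a barrier factor, by 0.51 ± 0.09 (limma adjusted p = 0.0419). Nfe2l2, which encodes the oxidative stress factor NRF2, measured 0.59 ± 0.15 (limma adjusted p = 0.0909) and Stat3 0.47 ± 0.14 (limma adjusted p = 0.130). On KO_Allo 0 of 16 passed 1 log2 unit from both knockout controls, against 0.307% of all genes upward and 0.0947% downward.

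Genes whose levels followed the wound keratins most closely over the 8 arrays were ranked by Pearson correlation with the mean log2 level of the 4 members, among 11918 genes with a value above the median of all values on some array, clone-type symbols left out. The 10 highest were Sfxn1, Stfa1, Gsdmc, Hmox1, Ifna15, Slc2a1, Mon1a, Acap3, Abcg1 and Stfa3, with r between 0.983 and 0.995. They followed Krt6a, Krt6b and Krt16 (r of 0.968 to 0.998) but Krt17 much less (0.408 to 0.557). Ifna15 was dim, with 5.42 on KO_CTRL and 6.12 on KO_IMQ as its lowest and highest readings. The arrays fall into those with high and those with low wound keratins, and that split alone gives values near 1, so r here only orders the genes. The list also depends on the measure, since 1 of the 10 remained with Spearman correlation and 5 without KO_Allo.

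Several of these genes moved over a range nearly as wide as the keratins. Gsdmc, a gasdermin, read 9.38, 9.40, 9.77 and 9.61 on KO_IMQ_Allo, KO_IMQ, KO_IMQ_B and WT_IMQ, against 9.17, 4.73, 6.66 and 4.84 on KO_Allo, KO_CTRL, KO_CTRL-B and WT_CTRL. Stfa1 and Stfa3, stefin A protease inhibitors, read 10.34 and 11.07 on KO_Allo, against 6.58 and 6.54 on KO_CTRL and 8.14 and 9.67 on KO_CTRL-B. Slc2a1, the glucose transporter GLUT1, read 9.78 on KO_Allo, against 8.32 and 9.10, and Hmox1, the stress-induced heme oxygenase, 8.87 against 7.50 and 8.25. Sfxn1, which heads the list, moved by less than 1 log2 unit in all, with 8.71 on KO_IMQ and KO_IMQ_B, against 8.03 on KO_CTRL.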

How the data were processed

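Dorsal skin of 8 labels was measured on 1 Affymetrix array each. The deposited values are log2 expression values. Per the submitters' processing notes the authors used RMA and Affymetrix Power Tools, and R 3.3.2 is named without a role. RMA subtracts background, gives all arrays a common distribution and summarises probes, so it compresses dim genes. Groups were taken from the sample titles.

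Of 41345 probe sets, 23521 had 1 gene symbol in the platform annotation, 1814 several and 16010 none. The probe set with the highest mean stood for a gene, giving 22180 genes, without a filter on dim genes. limma 3.58.1 in R 4.3.3 (lmFit, eBayes) was run with a level per pair of arrays and Benjamini-Hochberg adjustment over all genes. Genes were called at an adjusted p under 0.05. The fits had 3, 2 and 1 residual degrees of freedom for the IMQ, KO against WT and alloferon contrasts and were tested on simulated data. Single arrays were compared at 1 log2 unit. The number of arrays limits the precision.

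The members, gene lists and rules were chosen with earlier results of these data known. Named genes are the members, list genes that passed a test or differed most, and the 10 genes most correlated with the members. Others singled out after their values were seen are Krt42 and Krt75 (neighbours or relatives), Cd14, Il17a, Il17f, Nfe2l2, Stat3, Mki67 and Top2a. Alternatives were other priors, scalings, filters, limits and sets of pairs.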

Additional observations from a re-analysis of the deposited data

Results flagged for a closer look

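Krt17 was singled out because its IMQ difference was positive in all 3 KO pairs (0.47, 0.82 and 0.17 log2 units in the alloferon, plain KO and KO B pairs) and negative in the WT pair (-0.48). The difference of KO from WT was 0.97 ± 0.31 log2 units and did not pass (limma adjusted p = 0.983, unadjusted p = 0.0218), and WT is represented by 1 pair.

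The probe set annotated to both Gm5478 and Krt6b was not used above. It read 5.29, 5.81, 5.48 and 5.32 on KO_IMQ_Allo, KO_IMQ, KO_IMQ_B and WT_IMQ, against 4.96, 5.27, 4.71 and 4.52 on KO_Allo, KO_CTRL, KO_CTRL-B and WT_CTRL. It was singled out because all 4 IMQ arrays lay above the others, by 0.61 log2 units on average, with a gap of only 0.02 between the nearest arrays. On KO_Allo it lay between the controls, unlike the Krt6b probe set.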

How the results depend on the processing

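Of 267 values under alternatives, 214 kept their direction and their side of the threshold, or stayed within 1.5 times or within the spread. The IMQ call over 4 pairs was the least stable. Where 1 member passed and 685 genes in all, leaving out a pair gave 0 to 3 members and 0 to 1307 genes, with 0 and 0 for the KO pairs only (the same as leaving out WT), 0 and 2 without KO B, 0 and 260 without plain KO, and 3 and 1307 without the alloferon pair. Testing every probe set gave 0 members and 0 genes, no arm levels 2 members (Krt16 and Krt6a) and 747 genes, and a trended robust prior 0 members and 806 genes. Scaling and the filter on dim genes kept 1 member. The cause of these shifts was not tested beyond the fewer pairs or added probe sets themselves. The Krt6a difference of KO from WT was -0.72 and ran from -1.70 to 0.40 over the pairs left out, reversed without the alloferon pair. At a limit of 0.5 log2 units 2 members passed for KO_IMQ_Allo against the other KO arrays with IMQ. The share of all genes past it in either direction was 4.1%. At that limit 1 (Krt17) passed for KO against WT with IMQ, against 3.56%, and 1 (Krt16) in the alloferon pair, against 10.6%. On KO_Allo 3 members passed under both other scalings (0.419% and 0.397% of all genes), the filter (0.61%) and the limit of 0.5 (3.18%). At 2 log2 units 2 (Krt6b and Krt16) passed there, against 0.0631%. Of the 10 genes most like the keratins 1 remained with Spearman correlation, 2 with arm means removed and 5 without KO_Allo. The labels give no replicate numbers, so arrays were paired by label alone, with a level per pair in the design. The fit with no arm levels is the unpaired alternative.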

Other observations

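Ranked by the smaller of its differences from KO_CTRL and KO_CTRL-B, the genes highest on KO_Allo after Krt6b and Krt16 were, in order, Csta3 (3.07 log2 units), Sprr1b (2.90), Il1b (2.90), Ccl3 (2.88), Gsdmc (2.51), Cyp2g1 (2.28), Stfa1 (2.20) and S100a8 (2.17). Sprr1b encodes a cornified envelope protein, S100a8 an alarmin subunit, Csta3 and Stfa1 stefin-type protease inhibitors, and Ccl3 a chemokine. These genes were picked by their values, so no test was made.

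Krt17 had other closest genes than its family. The 5 with the highest Pearson correlation over the 8 arrays were Fam83h (0.990), Arhgef11 (0.982), Rpl37 (0.972), Rbfa (0.964) and Ppp1r13l (0.963). FAM83H is known in human cells to organise keratin filaments, but a tie of any of these genes to Krt17 was not tested. They were picked by their values over few arrays. The correlation of Krt17 with Krt6a, Krt6b and Krt16 was 0.481, 0.454 and 0.434, as a description over arrays that share the IMQ split.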
